A study of Mus musculus with 6 samples.

Results

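The annexins are a family of proteins that bind membrane phospholipids when calcium rises. Of 10 annexin genes considered in the colon of Hnf4α mutant and control mice, 9 had a probe set whose only gene symbol was theirs, out of 18193 named genes on the array. Anxa11 was not measured, because its single probe set also carries the symbols of other genes. The genes were taken as a family, but with earlier results of these data known, so their counts are no independent evidence. Where a gene had more than 1 such probe set, that with the highest mean signal stood for it. Total RNA of the colon, taken according to the methods from its proximal part, had been labelled and hybridised to 1 Affymetrix mouse genome array per animal, with 3 control and 3 mutant littermates at 1 year of age. The mutants carry floxed alleles of Hnf4α, which encodes an epithelial nuclear receptor, and Cre recombinase under the Villin promoter, which is active in intestinal epithelial cells but not in the stroma, muscle or immune cells of the same tissue. The controls are labelled wildtype, all animals were kept free of pathogens and received ketamine and xylazine before sacrifice, and the strain is not given in the sources used here.

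Annexins act where membranes meet calcium. They take part in vesicle traffic, in the sealing of torn plasma membranes and in the link between membranes and the actin cortex, and several work as complexes with small S100 proteins. Annexin A1 is also released and dampens the recruitment of leukocytes through formyl peptide receptors. In the gut, annexin A2 and annexin A4 are abundant in epithelial cells, and annexin A13 is an annexin of the intestinal epithelium.

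Several features of the arrays bear on every value below. The Hnf4a signal was between 11.97 and 12.23 on the log2 scale in controls and between 10.09 and 10.17 in mutants. Mutant replicate 1 is labelled female, like the controls, but its Xist signal (5.03) lay with those of the male mutants (5.19 and 5.32) and not with those of the controls (9.94 to 10.96). The RNA of every control was thus of the female type and that of every mutant of the male type, so sex and genotype cannot be told apart. The Y-linked genes Eif2s3y, Kdm5d and Uty had signals between 2.75 and 4.01 in the controls. This range serves as a guide to the level of a probe set without its RNA. That level differs between probe sets, since Xist read 5.03 to 5.32 in the mutants of the male type. A signal above 4.01 is therefore not in itself a sign of RNA. In mutant replicate 2 the median of 12 smooth muscle markers stood at -3.95 relative to the control mean on the log2 scale and that of 11 fibroblast and matrix markers at -3.43, against -0.29 to -0.52 for both lists in the other mutants. For some annexins the log2 fold change is also given without mutant replicate 1 or 2. Leaving out mutant replicate 1 does not separate sex from genotype, since the other mutants are of the male type too. In whole tissue, fewer cells of a type and less RNA per cell cannot be told apart. The 12 gut epithelium markers had a median between 0.16 and 0.21 above the control mean in the 3 mutants. They did not all move together. Epcam (-0.09), Vil1 (-0.30) and Krt20 (-0.49) had negative log2 fold changes, and the others had positive ones. These ran from 0.07 for Cldn7 to 0.75 for Krt18, with Cdx2 at 0.13, Cdh1 at 0.24, Krt19 at 0.45 and Cdh17 at 0.49. Arrays had medians of 5.43 to 5.53 over the log2 signals of their probe sets.

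Anxa1 and Anxa8 were higher in the mutants, and no annexin passed the test in the other direction. Log2 signals were compared with limma. A gene was called at an adjusted p under 0.05, by the Benjamini-Hochberg method over all 45037 probe sets. Of the 9 annexin genes 2 rose, against 0.484% of all named genes, and none fell, against 0.396% of all named genes. Without adjustment, 4 annexins were higher and 1 was lower in limma at p of 0.05 or less, where 10% and 6.18% of all named genes were. The 3 mutants lay above the 3 controls for 5 of the 9, where 14.5% of all named genes did, and below them for 1, where 8.86% did. The 9 log2 fold changes ran from -1.13 to 2.26, and 7 were positive. Their median was 0.16, near the 0.05 of all named genes, while the median of their absolute values was 0.84 against 0.15. At the unadjusted threshold of the methods, with a ratio of 2 or more, limma gave 3 annexins higher (1.02% of all named genes) and 1 lower (1.31%). An exact permutation test of a single gene with 3 arrays against 3 gives no two-sided p below 0.1, so the calls rest on the fit across all probe sets. Whether the annexins differed from each other in their response was not tested.

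**Figure D1:**
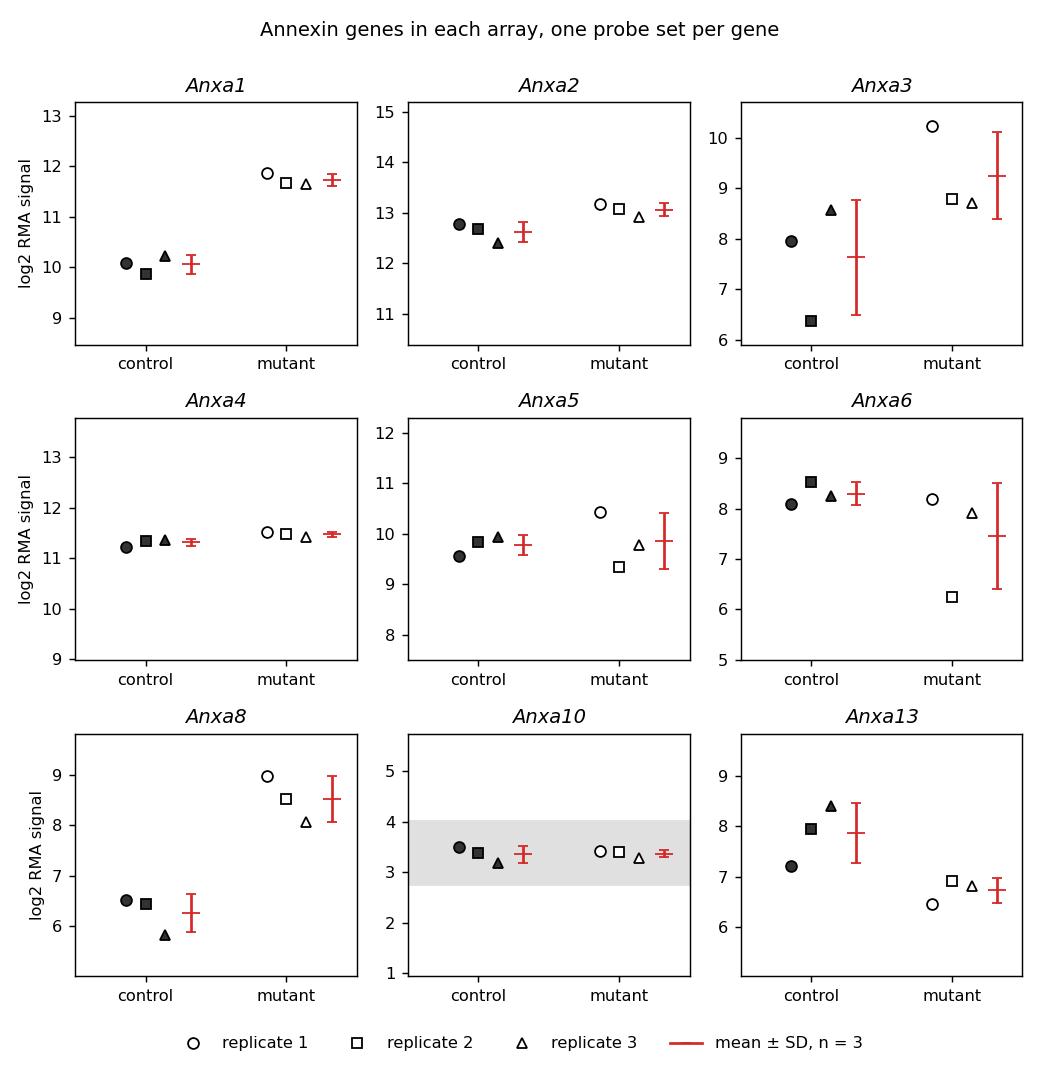
Log2 RMA signal (vertical axis) of 9 annexin genes in each array; filled symbols, controls; open symbols, mutants; shape, replicate; red, mean ± SD, n = 3. Each panel spans the same number of log2 units around its own values, and signals are not to be set against each other between panels. The grey band spans the control signals of the Y-linked genes (2.75 to 4.01) and holds all values of Anxa10. The mutants stand well above the controls for Anxa1 and Anxa8, and mutant replicate 2 stands alone at 6.25 for Anxa6.

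Anxa1 encodes annexin A1, the glucocorticoid-induced annexin that restrains neutrophil recruitment. On the log2 scale its signal read 10.09, 9.86 and 10.24 in controls 1, 2 and 3. Mutants 1, 2 and 3 read 11.88, 11.67 and 11.66. The lowest mutant lay 1.42 above the highest control, and no array stood apart within its group. The controls had a mean of 10.06 ± 0.19 (SD, n = 3) and the mutants one of 11.74 ± 0.12 (SD, n = 3). This is a ratio of 3.18, or 1.67 as a log2 fold change (standard error, SE, 0.13, 95% interval 1.37 to 1.97, limma adjusted p = 0.00554). Its p ranked 33 among those of all probe sets. Without mutant replicate 2 the log2 fold change was 1.70 (adjusted p = 0.0187), and without mutant replicate 1 it was 1.60 (adjusted p = 0.0220). Without control replicate 1 it was 1.69 and did not pass the test (adjusted p = 0.0553). A second probe set of Anxa1, 1444016_at, had signals between 3.35 and 3.95 in all arrays, within the range of the Y-linked genes in controls, and its log2 fold change was 0.16 (95% interval -0.21 to 0.53). No fold is drawn from it.

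Anxa8 encodes annexin A8, an annexin best known from stratified epithelia and from late endosomes. Controls 1, 2 and 3 had log2 signals of 6.52, 6.43 and 5.83. Mutants 1, 2 and 3 had 8.98, 8.51 and 8.07. The lowest mutant lay 1.55 above the highest control, the widest such gap among the 9 annexins. Its mean was 6.26 ± 0.38 (SD, n = 3) without the deletion and 8.52 ± 0.45 (SD, n = 3) with it. The ratio was 4.79 and the log2 fold change 2.26 (SE 0.27, 95% interval 1.62 to 2.91, limma adjusted p = 0.0275). Its other probe set, 1425789_s_at, gave 5.98, 5.96 and 5.74 in the controls and 8.05, 8.08 and 7.44 in the mutants. That probe set also rose, with a log2 fold change of 1.96 (SE 0.19, limma adjusted p = 0.0135). With 1 array left out, the first probe set passed the test only without control replicate 2 (adjusted p = 0.0477). The log2 fold change then was 2.39 without control replicate 1 (adjusted p = 0.108), 2.05 without control replicate 3 (adjusted p = 0.0708), 2.03 without mutant replicate 1 (adjusted p = 0.0538), 2.27 without mutant replicate 2 (adjusted p = 0.0766) and 2.49 without mutant replicate 3 (adjusted p = 0.0580).

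The 250 bases before the start sites of the annexins that rose are shown because both genes moved in the same direction after loss of a transcription factor. They were taken from RefSeq on the GRCm38.p6 build and run in the direction of each gene. That of Anxa1 is chr19:20390672-20390921 on the minus strand, and that of Anxa8 is chr14:34085729-34085978 on the plus strand. Capitals mark matches to the letters searched.
Anxa1: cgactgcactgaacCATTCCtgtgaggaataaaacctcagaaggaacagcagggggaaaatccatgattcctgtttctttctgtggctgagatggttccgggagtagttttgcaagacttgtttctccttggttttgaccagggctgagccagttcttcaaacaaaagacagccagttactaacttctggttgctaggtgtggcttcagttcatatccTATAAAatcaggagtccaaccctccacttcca
Anxa8: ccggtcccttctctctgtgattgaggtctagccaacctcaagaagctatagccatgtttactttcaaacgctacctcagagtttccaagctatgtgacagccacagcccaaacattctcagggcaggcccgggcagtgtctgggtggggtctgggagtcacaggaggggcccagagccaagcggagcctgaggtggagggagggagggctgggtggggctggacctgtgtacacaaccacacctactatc

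Both strands were searched for CAAAGTCCA, the letters of an HNF4 motif, and for its core, which is written CAAAGTC and lies within it. The other letters searched were TGANTCA (the AP-1 motif), CATTCC (the TEAD motif) and TATAAA (the TATA box). The HNF4 letters lie in 0.384% of 32851 promoter windows of this length and the core in 3.84%. AP-1 letters lie in 6.75%, TEAD letters in 12.6% and TATA letters in 12.4%. The Anxa1 window held CATTCC from 231 to 236 bases before the start and TATAAA from 27 to 32 bases before it. The Anxa8 window held none of the letters. GC content was 46.0% in the Anxa1 window and 58.0% in that of Anxa8, against a median of 52.4% over all windows. Windows were at hand for 7 of the 10 annexins (Anxa1, Anxa2, Anxa4, Anxa5, Anxa8, Anxa10 and Anxa11), and none of their 8 windows held the HNF4 letters or the core. The windows of Anxa2 and Anxa10 held both AP-1 and TATA letters, with TGAGTCA at 89 to 95 bases before the start of Anxa2. A match is a run of letters and not a measured site, and a missing match concerns these letters in this window only.

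Neither Anxa2 nor Anxa4, the annexins of polarised epithelium, passed the test. Annexin A2 forms a complex with S100A10 at the plasma membrane and binds plasminogen activators. Anxa2 had log2 signals of 12.77, 12.68 and 12.40 in controls 1, 2 and 3 and of 13.18, 13.08 and 12.92 in mutants 1, 2 and 3. The mutants lay above the controls by a gap of 0.15. A log2 fold change of 0.44 (SE 0.13, 95% interval 0.13 to 0.75), or a ratio of 1.36, did not pass the test (unadjusted p = 0.0127 and adjusted p = 0.254 from limma). Its probe set 1437692_x_at gave 0.22 (95% interval -0.02 to 0.46), and 1437691_at, with signals between 2.95 and 3.20 and so within the range of the Y-linked genes in controls, gave -0.04. Annexin A4 binds the apical and basolateral membranes of secretory and absorptive epithelia. Anxa4 read 11.24, 11.35 and 11.36 in controls 1, 2 and 3 and 11.52, 11.48 and 11.43 in mutants 1, 2 and 3. The groups did not overlap, but the gap was 0.06 and the log2 fold change 0.16 (SE 0.09, 95% interval -0.05 to 0.37, adjusted p = 0.484). The other 2 probe sets of Anxa4 gave 0.14 and 0.18, with overlapping groups. Anxa4 was the steadiest annexin, and 4.51% of all named genes had a smaller SD within the groups.

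Anxa13, the annexin of the intestinal epithelium, was the only one of the 9 genes with every mutant below every control. Annexin A13 associates with membrane rafts and with apical vesicle delivery in epithelial cells. The log2 signals were 7.22, 7.95 and 8.40 in controls 1, 2 and 3 and 6.45, 6.91 and 6.83 in mutants 1, 2 and 3. The highest mutant lay 0.31 below the lowest control, control replicate 1. Mutants minus controls gave -1.13 (SE 0.29, 95% interval -1.83 to -0.43, unadjusted p = 0.00660), a ratio of 0.457. It did not pass the test over all probe sets (adjusted p = 0.195 from limma). With each array left out in turn it stayed between -1.45 and -0.86, with adjusted p between 0.134 and 0.397. It was -1.22 without mutant replicate 2 and -0.99 without mutant replicate 1. Anxa13 had a single probe set, 1424959_at, so no other measurement of it could be set beside this one.

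Anxa3 had the widest spread of the family. Annexin A3 is found in neutrophil granules and in epithelial cells. Signals of 7.97, 6.37 and 8.58 were read in controls 1, 2 and 3 and of 10.24, 8.79 and 8.71 in mutants 1, 2 and 3. Control replicate 2 was low, mutant replicate 1 was high, and the lowest mutant lay 0.14 above the highest control. The log2 fold change of 1.61 was a ratio of 3.06, close to that of Anxa1, but its SE was 0.63 and its 95% interval ran from 0.11 to 3.11 (unadjusted p = 0.0389, adjusted p = 0.359 from limma). It became 0.98 without control replicate 2 (adjusted p = 0.324), 1.12 without mutant replicate 1 and 2.08 without control replicate 3. The SD of Anxa3 within the groups was 1.01, and 98.8% of all named genes had a smaller one.

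**Figure D2:**
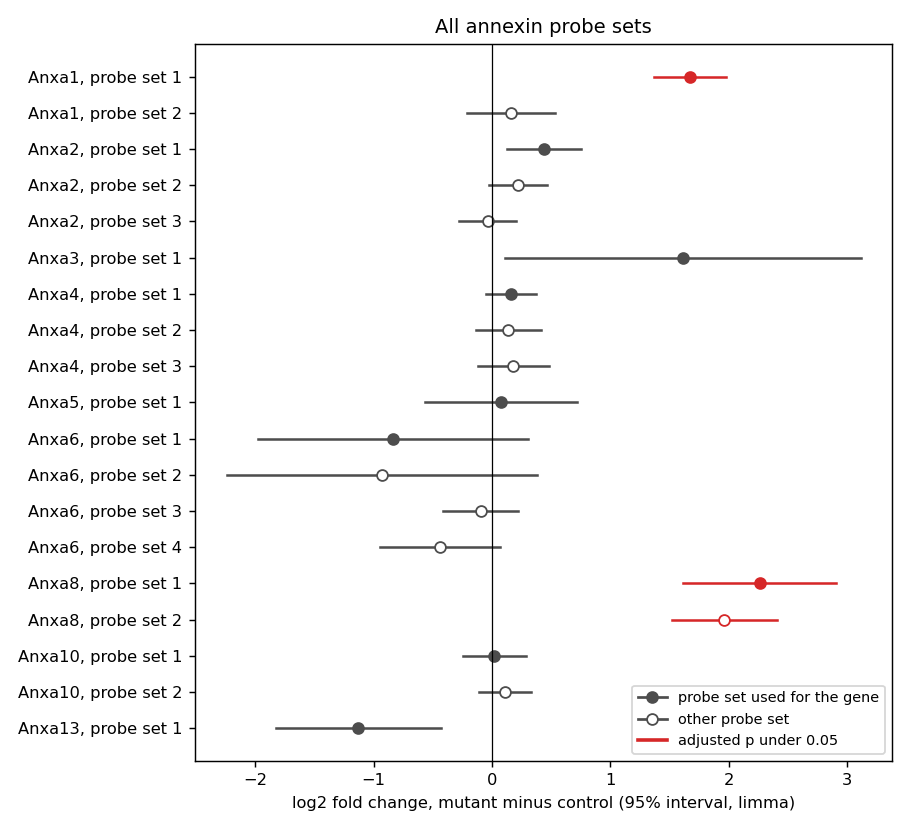
Log2 fold changes, mutant minus control, of all 19 annexin probe sets with 95% intervals from limma (horizontal axis); filled circles, the probe set used for the gene; open circles, its other probe sets; red, adjusted p under 0.05. Both probe sets of Anxa8 lie near 2 (2.26 and 1.96), while the second of Anxa1 (0.16), which has no signal above the Y-linked range, lies apart from the first (1.67).

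Anxa5 and Anxa6 followed individual animals more than the groups. Annexin A5 binds phosphatidylserine, which is why it is used to stain dying cells. Anxa5 had log2 signals of 9.55, 9.84 and 9.93 in controls 1, 2 and 3 and of 10.43, 9.34 and 9.78 in mutants 1, 2 and 3. Mutant replicate 1 was the highest and mutant replicate 2 the lowest of the 6 arrays. Between the groups it differed by 0.08 (SE 0.27, 95% interval -0.56 to 0.72, adjusted p = 0.918), with 0.33 without mutant replicate 2 and -0.21 without mutant replicate 1.

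Annexin A6, the annexin with a doubled core, is abundant in muscle and connective tissue. Anxa6 had log2 signals of 8.09, 8.53 and 8.25 in controls 1, 2 and 3 and of 8.19, 6.25 and 7.92 in mutants 1, 2 and 3. Mutant replicate 2 alone stood below all other arrays, by more than the whole range of the controls. The log2 fold change was -0.84 (SE 0.48, 95% interval -1.98 to 0.30, adjusted p = 0.491), and it was -0.24 without mutant replicate 2 (adjusted p = 0.756). The probe set 1429246_a_at had the same pattern, at 5.11 in mutant replicate 2 against 7.36 and 7.10 in the other mutants. The remaining probe sets of Anxa6 gave log2 fold changes of -0.10 and -0.44. In mutant replicate 2 Acta2, the actin of smooth muscle, was 9.32 against 12.87 to 13.12 in the other 5 arrays, and Col1a1, a collagen of fibroblasts, was 5.77 against 8.51 to 9.45. The part of these cells in the Anxa6 value was not tested beyond leaving the array out.

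Anxa10, known from the surface epithelium of the stomach, was not above the range of the Y-linked genes in controls. It read 3.50, 3.38 and 3.18 in controls 1, 2 and 3 and 3.43, 3.39 and 3.29 in mutants 1, 2 and 3. A difference of 0.02 (95% interval -0.25 to 0.28) was measured, and the other probe set, with signals between 2.98 and 3.22, gave 0.11. No fold is drawn from values at this level. Of 6 markers of stomach surface epithelium none passed the test, and their median in the mutants was between 0.09 and 0.23 above the control mean. Tff2, a trefoil peptide, had the smallest p among them (log2 fold change 1.20, SE 0.19, limma adjusted p = 0.0630).

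The marker lists of other cell types were read beside the annexins that rose. Annexin A1 is also a protein of neutrophils and macrophages. The median of 6 neutrophil markers was between 0.09 and 0.28 above the control mean in the mutants, and S100a8 was between 3.79 and 4.31 in controls and between 4.37 and 4.91 in mutants, a log2 fold change of 0.56 (SE 0.19, adjusted p = 0.306). The S100a8 signals of controls lay partly within the range of the Y-linked genes, which ends at 4.01, so its fold is uncertain. The median of 8 macrophage markers lay between -1.70 and -0.11 in the mutants and that of 6 general leukocyte markers between -1.61 and -0.37, with the lowest value of both in mutant replicate 2. Not all of these markers were lower. Without adjustment, 2 macrophage markers were higher in limma at p of 0.05 or less (10% of all named genes) and none was lower (6.18%). Cd68, a lysosomal protein of macrophages, had log2 signals of 5.95, 7.01 and 5.81 in controls 1, 2 and 3 and of 7.29, 7.63 and 7.69 in mutants 1, 2 and 3 (log2 fold change 1.28, SE 0.31, limma unadjusted p = 0.00484, adjusted p = 0.174). Cd14, a receptor for bacterial lipopolysaccharide, was between 8.22 and 8.58 in controls and between 8.77 and 9.19 in mutants (0.56, SE 0.16, limma unadjusted p = 0.0107, adjusted p = 0.236). For both genes every mutant lay above every control, as for Anxa1, and their part in the Anxa1 value was not tested. All the other macrophage markers had negative log2 fold changes, from -1.71 for C1qb to -0.24 for C1qa. Of the general leukocyte markers 4 were lower (6.18% of all named genes) and none was higher (10%) at the same unadjusted p. Ptprc, the common leukocyte antigen, was between 7.89 and 8.11 in controls and 5.94 to 7.24 in mutants (log2 fold change -1.25, SE 0.32, adjusted p = 0.186). None of the 6 neutrophil, 8 macrophage and 6 general leukocyte markers passed the test. Since Anxa8 is an annexin of stratified epithelia, 9 markers of these were also read, and their median in the mutants was between 0.01 and 0.24. Krtdap, of cornifying cells, stayed within the range of Y-linked genes on average in both groups. Krt5, a basal keratin, had signals between 5.64 and 6.13 in controls and between 5.75 and 5.76 in mutants. Krt13 was the only one of the 9 with an unadjusted p under 0.05, and it had 0.96 (SE 0.16, adjusted p = 0.0684). Its signals were 3.89, 4.40 and 3.89 in controls 1, 2 and 3 and 4.93, 5.13 and 5.01 in mutants 1, 2 and 3. Controls 1 and 3 lay within the range of the Y-linked genes, so its fold is uncertain too. The remaining lists had medians in the mutants of -1.76 to -0.33 for 7 endothelial markers, -1.05 to -0.68 for 5 markers of B and plasma cells, -0.40 to -0.05 for 6 of T cells, -0.46 to 0.02 for 7 of goblet cells and -0.30 to 0.10 for 5 of enteric neurons and glia. Most of the lists of stroma and leukocytes were lowest in mutant replicate 2. Without it Anxa1 had a log2 fold change of 1.70 (limma adjusted p = 0.0187). That of Anxa8 was 2.27 and did not pass the test (limma adjusted p = 0.0766). Leaving this array out does not remove the difference in these lists, since general leukocyte markers also had medians of -0.80 and -0.37 in mutants 1 and 3. The part of cell types in the rise of Anxa1 and Anxa8 was not tested.

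**Figure D3:**
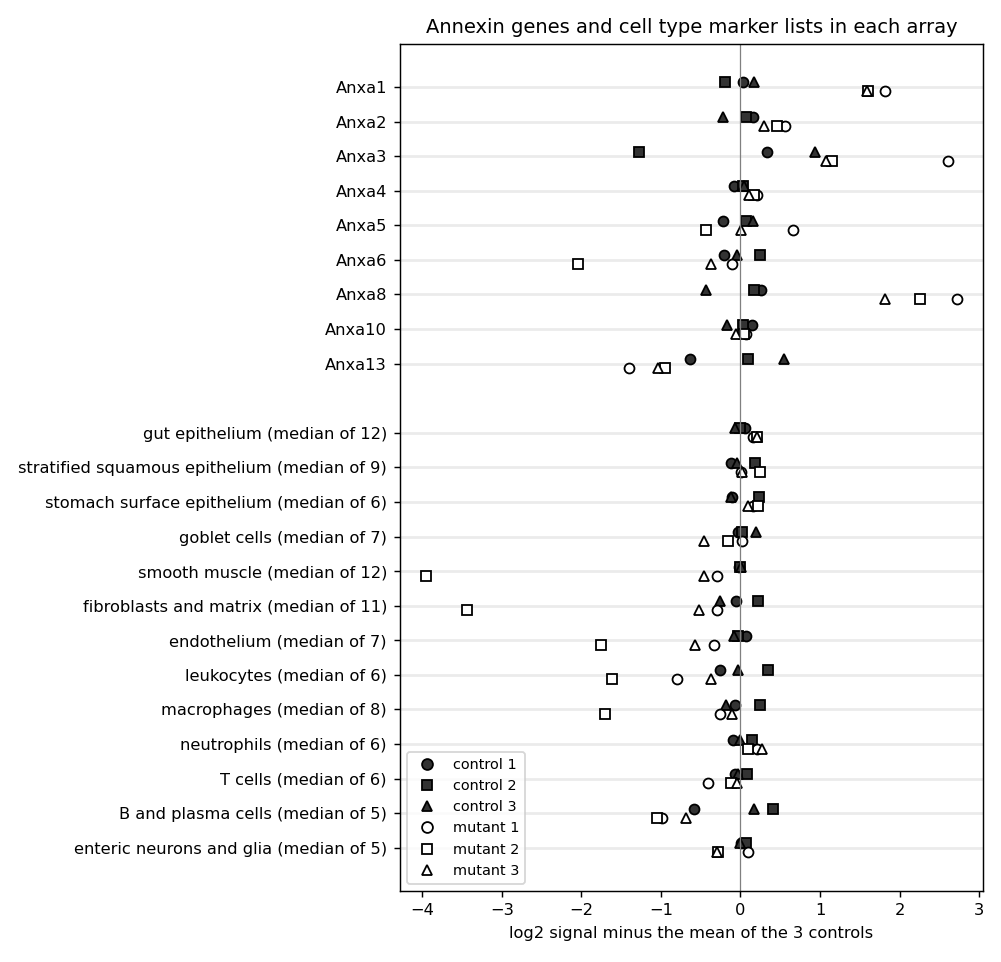
The horizontal axis gives the log2 signal relative to the control mean of each annexin gene and, below, the median of each cell type marker list in each array; filled symbols, controls; open symbols, mutants; shape, replicate. Mutant replicate 2 stands at -3.95 for smooth muscle, -3.43 for fibroblasts and matrix and -2.04 for Anxa6, while the 3 mutants lie together for Anxa1 and for gut epithelium.

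Of 15 genes known to act with annexins, 13 had a probe set of their own, and limma called 1 of them as higher (0.484% of all named genes) and none as lower. Without adjustment, 3 had p of 0.05 or less and were higher (10% of all named genes), and none was lower (6.18%). Their median log2 fold change was 0.08, near the 0.05 of all named genes, and 9 of the 13 were positive. S100a11, whose probe set carries other symbols, and Fpr1 were not measured. The gene that rose was Myof, myoferlin, a protein of the ferlin family that takes part in membrane repair and fusion. Myof read 7.35, 7.03 and 7.33 in controls 1, 2 and 3 and 8.64, 8.57 and 8.67 in mutants 1, 2 and 3 on the log2 scale. No mutant came within 1.22 of the highest control. The ratio was 2.63 and the log2 fold change 1.39 (SE 0.12, 95% interval 1.12 to 1.67, limma adjusted p = 0.00795). It passed the test with each array left out but mutant replicate 3 (1.37, adjusted p = 0.0580). Dysf, the related dysferlin, had -0.25 (SE 0.17, adjusted p = 0.547).

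Plaur, the receptor of urokinase, had 6.88, 7.16 and 7.05 in controls 1, 2 and 3 and 8.14, 9.16 and 8.51 in mutants 1, 2 and 3. All mutants were above all controls, and the log2 fold change was 1.58 (SE 0.25, limma adjusted p = 0.0605), which did not pass the test. Sri, sorcin, a calcium sensor that binds annexins A7 and A11, had 0.39 (SE 0.09, adjusted p = 0.145), and its groups did not overlap either. Plat, tissue plasminogen activator, and Dysf had the smallest p among the partners with negative values, and Plat had -0.47 (SE 0.25, adjusted p = 0.472). S100a10, the partner of annexin A2, had -0.14 (95% interval -0.55 to 0.27, adjusted p = 0.755), with overlapping groups. S100a6 had 0.07 (adjusted p = 0.761), Fpr2, a receptor of annexin A1, 0.17 (adjusted p = 0.560) and Pla2g4a, the cytosolic phospholipase that annexin A1 inhibits, 0.19 (adjusted p = 0.629). Fpr2 had log2 signals between 4.38 and 4.73 in the 6 arrays. Of the other annexins on the array, Anxa7 had 0.14 (SE 0.13, adjusted p = 0.675) and Anxa9 -0.08 (SE 0.20, adjusted p = 0.883).

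**Figure D4:**
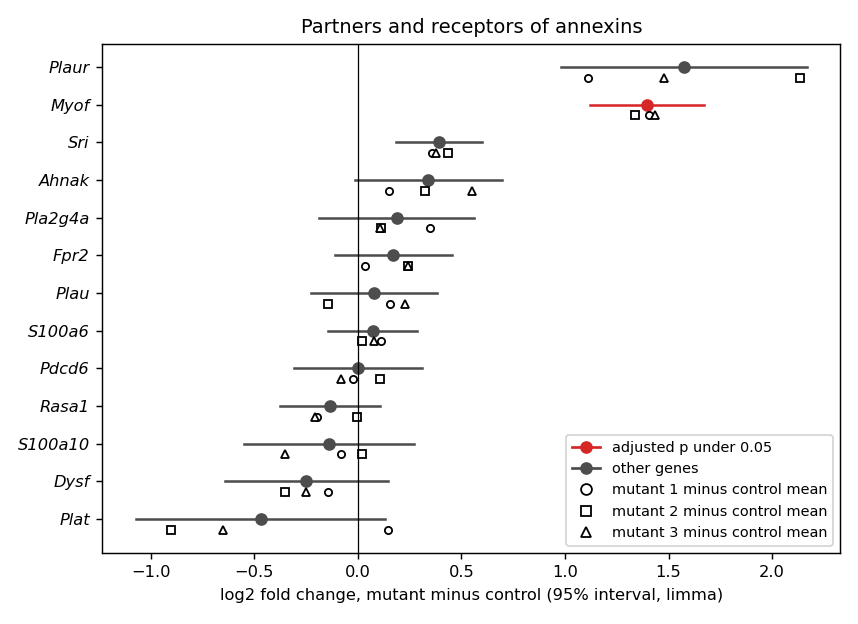
Log2 fold changes, mutant minus control, of 13 partners and receptors of annexins (horizontal axis) with 95% intervals from limma; red, adjusted p under 0.05; small open symbols, each mutant minus the control mean. The 3 mutants lie close together for Myof (1.39) and far apart for Plaur (1.58), the partner with the larger value that did not pass the test.

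The genes whose array profiles lay closest to the annexins that rose were found by the root mean square difference over the 6 arrays, after the control mean of each gene had been subtracted. This is a description over 6 arrays that share the same 2 groups. A profile close to that of a called annexin holds its rise by construction. The search was limited to genes with a mean log2 signal of 6 or more over the 6 arrays, mutants included. Closest to Anxa1 was Akr1b8, an aldo-keto reductase, at a difference of 0.11 log2 units, with signals of 9.68, 9.50 and 9.57 in controls and 11.49, 11.09 and 11.15 in mutants. Lpcat4, an acyltransferase of phospholipids (0.21), Myof (0.21), Slc25a35, a mitochondrial carrier (0.24), and Marcksl1, an actin-binding substrate of protein kinase C (0.25), followed. Closest to Anxa8 was Nxpe4 at 0.29, with signals of 5.11, 4.82 and 4.98 in controls and 8.10, 7.17 and 6.63 in mutants, in the same order of mutants as Anxa8. Aldh1a3, a retinaldehyde dehydrogenase (0.37), Clca3b (0.41), Ankrd22 (0.44) and S100a14 (0.48) came next. Nxpe4 and Ankrd22 reached the mean of 6 only through the mutants, with control means of 4.97 and 5.10. Nxpe4 did not pass the test (limma adjusted p = 0.0504).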

How the data were processed

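Per the labels and the methods, the authors extracted total RNA from the colon of each animal, hybridised biotin-labelled cRNA to 1 array per animal and made log2 values by RMA in FlexArray over the 6 arrays. These deposited log2 values were used as they stand. Probe sets were named from GEO's platform annotation, in which 34945 carried 1 symbol, 932 several and 9160 none. The 45037 probe sets other than 64 controls were fitted with limma 3.58.1 in R 4.3.3, mutant minus control, with no covariate. The methods' SAM test was not run, and limma took its place. Groups of 3 arrays limit the precision. The p-values set the difference between the groups against the spread among these animals, with variances that draw on all probe sets. The fit was tested on simulated data with independent normal values. These hold no outlying array, cell mixture or sex difference, so the simulation does not bear on those limits. The annexins, partner and marker lists were chosen with earlier results of these data known, so their counts are no independent evidence. Named were all annexins, the partners called or with the 2 smallest p in each direction, a few further partners and cell type markers chosen after their values were seen, and the 5 closest profiles to each called annexin. Alternatives were other normalization, filters, variance models, array weights, blocks, probe sets and each array left out. The AP-1, TEAD and TATA letters were added after the data had been seen. Proteins were not analysed here.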

Additional observations from a re-analysis of the deposited data

How the results depend on the processing

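The number of annexins that rose (2) and fell (0) was the same with quantile normalization again, arrays centred on their medians, probe sets with a mean under 5 left out, an intensity trend, array weights, control probe sets kept and the mean of all probe sets of a gene, with which Anxa1 had 0.91. With arrays left out in turn, 0 to 2 rose: none without control replicate 1, and 1 without control replicate 3 or any 1 mutant. Over the array, 22 probe sets rose without control replicate 1, 47 without control replicate 3 and 31 without mutant replicate 3. Between 71 and 130 rose without 1 of the other arrays, against 137 with all 6. The median log2 fold change of the annexins with arrays left out was between 0.12 and 0.33. At the unadjusted threshold of the methods, 3 were higher and 1 was lower. Partners that rose numbered 2 with the intensity trend, with array weights and at the threshold of the methods, and 0 to 2 with arrays left out. Values near 0 changed sign: Anxa10 had -0.023 with quantile normalization again and -0.068 to 0.091 with arrays left out, where Anxa5 had -0.21 to 0.33 and Anxa9 -0.20 to 0.13. The cause was not tested. The correlations of same-numbered deviations were -0.02, 0.25 and -0.15, and that of control replicate 3 with mutant replicate 1 was 0.38. They showed no clear pairing of the arrays by replicate number, but with 3 arrays per group they cannot exclude one. With the replicate number as a block, 2 annexins rose and 0 fell, with adjusted p = 0.0383 for Anxa1 and adjusted p = 0.0139 for Anxa8 from limma, while over the array 34 probe sets rose and 28 fell, against 137 and 102 without it.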
